A study of Drosophila melanogaster with 5 samples.

Results

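The microRNA genes mir-11 and mir-998 lie together in one intron of E2f1, and mir-285 and mir-995 are genes at other loci whose mature products carry the same seed as miR-998. These 4 hairpins were taken by name from the deposited count table. They account for 8 of its 479 mature arms, a 5p and a 3p arm for each hairpin, and for 4 of its 259 hairpins. The libraries were made from small RNAs of 18 to 29 nt of adult Drosophila melanogaster males of the white-eyed w1118 laboratory strain, wild-type in the design text, aged 2 to 3 days and kept on standard food. Intestine was dissected out in 3 libraries, and the carcass that remained was used in 2. RNA was prepared in triplicate per the labels, which do not give the number of flies behind a library. A carcass of this kind is what is left of the fly, a mixture that holds muscle, nervous system, fat body and testis.

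A microRNA is cut from a hairpin precursor, and one strand of the duplex is loaded into Argonaute, where the bases of its 5′ end called the seed choose its targets. E2f1 is the activating E2F transcription factor of the fly, which drives genes of DNA replication and can also promote apoptosis. Its intronic microRNA miR-11 is known to restrain the cell death genes reaper and hid, and miR-998 is known to repress Cbl, a negative regulator of EGFR signalling, in fly tissues. The seed of miR-998-3p is that of the miR-29 family of vertebrates and is shared with miR-285-3p and miR-995-3p. The seed of miR-11-3p is a different one, the K-box seed of the miR-2/13 family. mir-995 sits in the gene of the cyclin-dependent kinase Cdk2, the partner of Cyclin E.

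In the BDGP6.54 annotation, mir-11 (FBgn0262434) occupies 21622497 to 21622571 and mir-998 (FBgn0262405) 21621879 to 21622021 on the minus strand of chromosome 3R. Both lie in the last intron of E2f1, 1115 bases long (21621697 to 21622811), in all 6 annotated transcripts that span them. The hairpins are 475 bases apart, with mir-11 the nearer to the 5′ end of the host. mir-995 (FBgn0262185) occupies 20735923 to 20736012 on the plus strand of 3R, within a 266-base intron of Cdk2, the first of its transcript. mir-285 (FBgn0262401), at 11946093 to 11946191 on the minus strand of 3L, overlaps no protein-coding gene. Its neighbours are CG5883, 1240 bases to one side, and CG7252, 1483 bases to the other.

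**Figure D1:**
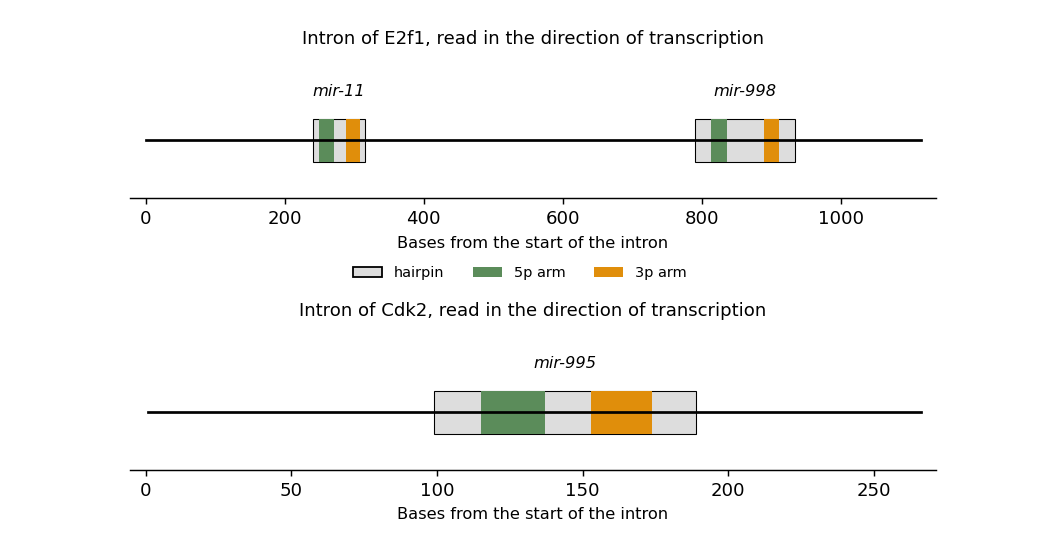
Introns of E2f1 (top) and Cdk2 (bottom) drawn to scale in the direction of transcription, with bases from the start of the intron on the x axis; grey boxes are hairpins, green boxes 5p arms and orange boxes 3p arms. mir-11 and mir-998 share the 1115-base intron of E2f1 and are separated by 475 bases, whereas mir-995 is alone in a 266-base intron.

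The libraries held 329424 to 547937 microRNA reads for the intestine, against 1654625 and 3038873 for the carcass. Levels are given as CPM (counts relative to library size) after TMM scaling; 3 reads correspond to between 6.29 and 10.8 CPM in the intestine and to 1.42 and 0.814 CPM in the carcass. The 8 arms described here are 21 to 23 nt long and are each read whole, so no scaling by length was made. Marker microRNAs followed the labels: all 6 arms of mir-958, mir-375 and mir-263a were called higher in the intestine. The listed markers of other tissues were low there but not absent. On library totals, the neuron and eye list (mir-124, mir-210, mir-263b) stood at 0.668 to 1.01% of the carcass level in the intestine libraries, with 2 of its 6 arms at 0 reads. The muscle microRNA mir-133 stood at 0.640 to 1.67%, and the testis clusters at 1.11 to 1.43% with 13 of 36 arms at 0 reads. mir-1, another muscle microRNA that was not in the list, was not nearly so low. Its hairpin sums averaged 42294 CPM in the intestine and 105350 CPM in the carcass (log2 fold change -1.32).

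The 3p arms of the 4 hairpins did not move together. miR-285-3p stood at 43.5-fold its intestine level in the carcass. miR-998-3p was 2.28-fold lower in the intestine, while miR-11-3p and miR-995-3p were 1.47-fold and 1.83-fold higher there, the last values being dependent on the scaling. miR-998-3p is the minor arm of its hairpin. The summed reads of mir-998 had a log2 fold change of 0.34 that was not called, with the sign of mir-11 (0.78) and mir-995 (1.07). Of the 8 arms, 7 passed the low-count filter, both arms of miR-285 through their carcass reads alone. With edgeR's quasi-likelihood test and a threshold of 0.05 on the p adjusted over the 222 arms kept (Benjamini-Hochberg), the intestine was higher for 3 of them and lower for 3. Calls were common in this comparison: of all tested arms 82.9% were called, 34.7% higher and 48.2% lower, so calls in 6 of 7 arms are near the background. Values of the tissues did not overlap for 6 of the 7, against 87.8% of all tested arms. In bulk RNA of this kind, fewer cells of a type and less RNA per cell cannot be told apart. Separate animals per replicate are not stated, and the spread against which the p-values are set may therefore be technical.

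**Figure D2:**
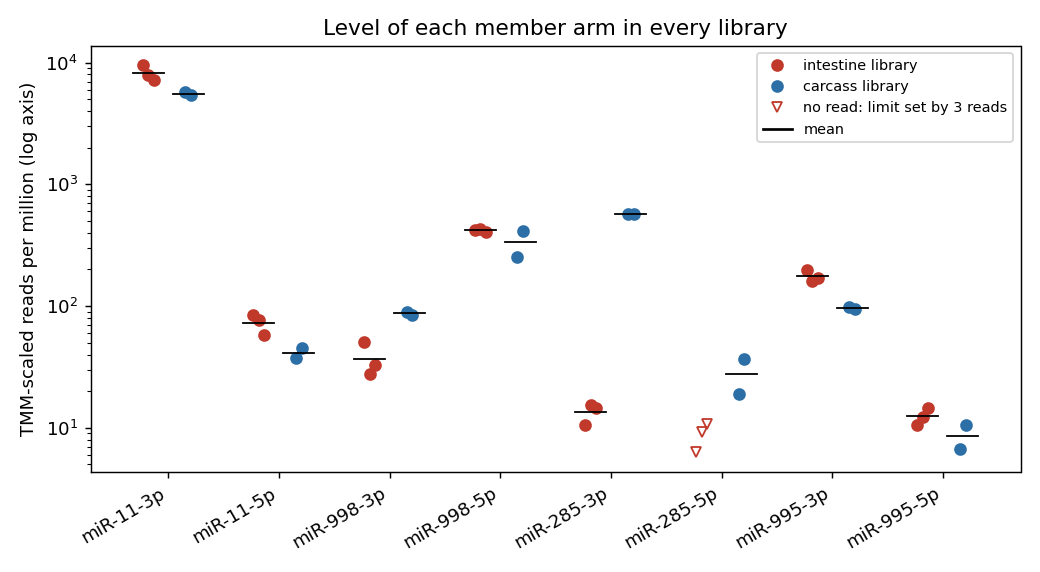
TMM-scaled CPM of the 8 member arms (log axis) in the 3 intestine libraries (red) and the 2 carcass libraries (blue), with bars at the means; open triangles mark libraries with no read, placed at the level of 3 reads. The libraries are farthest apart for miR-285-3p, and overlap for miR-998-5p and miR-995-5p.

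Of the E2f1 pair, miR-11-3p was by far the more abundant arm. It measured 9520, 7880 and 7152 TMM-scaled CPM in intestine libraries 1, 2 and 3, and 5693 and 5460 in carcass libraries 1 and 2. All 3 intestine libraries lay above both carcass libraries, and the arm ranked 25 of 479 in the intestine and 21 in the carcass. On the log2 scale the fold change came to 0.55 with an SE of 0.22 (edgeR adjusted p = 0.0215, n = 3 and 2). This call was made with TMM only among 6 ways of scaling. With library totals the log2 fold change was 0.03, and the intestine level was then 102 ± 16.4% of the carcass level (SD, n = 3). TMM put the median of the 222 arms at -0.50, with a lower quartile of -4.78, and library totals put the median at -1.02. miR-11-3p lay 1.05 to 1.06 above this median with each of the 6 scalings. A scaling shifts all arms by nearly the same amount, so this steadiness was fixed in advance and is no support for the call. The call was also lost when intestine replicate 1, 2 or 3 or carcass replicate 2 was left out (log2 fold changes 0.09, 0.40, 0.43 and 0.52; edgeR adjusted p between 0.0508 and 0.690).

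miR-11-5p, the passenger strand, held under 1% of the mir-11 reads in every library. The intestine libraries had 83.9, 76.8 and 57.8 CPM of it and the carcass libraries 37.4 and 45.1, without overlap. Its log2 fold change of 0.83 (SE 0.30) had an edgeR adjusted p of 0.0104 and was called with 2 of the 6 scalings and not called without intestine replicate 1 (0.39), intestine replicate 2 (0.64) or carcass replicate 1 (0.72). The 5p share of mir-11 was 0.880 ± 0.0822% over the intestine libraries (SD, n = 3), against 0.736 ± 0.117% over those of the carcass (SD, n = 2), which overlapped, and a smaller gap without carcass replicate 1 (0.0614 percentage points, against 0.144 with all libraries). Either arm of mir-11 thus gave a positive log2 fold change, and a difference in arm use was not detected (edgeR usage test, adjusted p = 0.549).

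The neighbour, mir-998, was read mainly from its 5p arm, the one that does not carry the miR-29 family seed. miR-998-5p measured 426, 430 and 408 CPM in the intestine, a narrow range, but 254 and 416 in carcass libraries 1 and 2, so that carcass replicate 2 fell within the intestine range. Its log2 fold change of 0.33 (SE 0.25) did not pass the test (edgeR adjusted p = 0.226), and it passed only when carcass replicate 2 was left out (0.73, edgeR adjusted p = 0.0377). The sign turned with RLE factors (-0.02) and with library totals (-0.19).

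The seed-bearing arm, miR-998-3p, stood at 50.3, 27.6 and 32.5 CPM in intestine libraries 1, 2 and 3 and at 90.0 and 84.7 CPM in the carcass libraries. It rested on 24, 9 and 9 reads in the intestine against 190 and 312 in the carcass, and every intestine library lay below both carcass libraries. A log2 fold change of -1.19 (SE 0.31) was fitted, with an edgeR adjusted p of 0.000739. It ran from -1.19 to -1.71 over the 6 scalings, called in each of them. Without intestine replicate 1, the highest of its group, it was -1.87. A test against a 2-fold change was not passed (edgeR adjusted p = 0.167).

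The arms of mir-998 therefore differed in their balance between the tissues, a comparison within each library that no scaling affects. The 5p arm held 89.4% of the mir-998 reads in intestine library 1 (203 of 227 reads, 95% exact binomial interval 84.7 to 93.1%). It held 94.0% in intestine library 2 (140 of 149 reads, 88.8 to 97.2%) and 92.6% in intestine library 3 (113 of 122 reads, 86.5 to 96.6%). In the carcass it held 73.8% in library 1 (536 of 726 reads, 70.5 to 77.0%) and 83.1% in library 2 (1533 of 1845 reads, 81.3 to 84.8%). The tissues did not overlap, but the carcass libraries also differed from each other beyond counting error. The intervals cover counting error only, as the reads carry no molecular identifiers. The mean share was 92.0 ± 2.33% for the intestine (SD, n = 3) against 78.5 ± 6.55% for the carcass (SD, n = 2). The exact two-sided permutation p, taken as 2 times the smaller one-sided p, was 0.2. This is the smallest that this test allows with 3 against 2 libraries. The gap of 13.5 percentage points was 8.91 without carcass replicate 1 and 18.2 without carcass replicate 2.

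Tested across all 85 hairpins with both arms measured, the 3p arm of mir-998 fell by 1.52 on the log2 scale relative to its 5p arm in the intestine (edgeR usage test, adjusted p = 0.000496). The usage test called 18 of the 85 hairpins, a background of 21.2%. It passed without any 1 of the 5 libraries, with values between -1.16 and -1.96 (edgeR adjusted p up to 0.0272). The test was chosen after the arm counts had been seen. Rows were assigned to arms through the names and positions of the BDGP6.54 annotation, and whether the authors' annotation placed the mir-998 arms in the same way could not be checked.

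Since mir-11 and mir-998 sit in the same intron, their ratio in a library compares the output of hairpins with one host. For the 3p arms there were 189, 285 and 220 miR-11-3p reads per miR-998-3p read in the intestine libraries, against 63.3 and 64.5 in the carcass libraries. The ratio averaged 231 ± 48.9 for the intestine (SD, n = 3) against 63.9 ± 0.847 for the carcass (SD, n = 2), with no overlap. The log2 ratio of miR-998-3p to miR-11-3p was lower in the intestine by 1.84 (a difference of -1.84), with an exact two-sided permutation p of 0.2, the smallest possible here. In the edgeR usage test over the 5 introns with several tested hairpins, the relative log2 change of the E2f1 pair was -1.74 (adjusted p = 1.3e-08), and it lay between -1.59 and -1.97 when libraries were left out. That test called 3 of the 5 introns (60%). The others called were Gmap and grp (edgeR usage test, adjusted p = 2.0e-09 and 2.6e-08), so a call was common. The spi and Oda introns, which hold near-identical copies, were not called. The share mixes major and minor arms, as the E2f1 pair does. miR-11-3p is the major arm of its hairpin and miR-998-3p the minor. In the Gmap intron the 3p arms are the minor ones. Intestine means were 20.6 CPM for miR-12-3p against 11884 for miR-12-5p, and 125 for miR-283-3p against 6592 for miR-283-5p. For miR-304-3p and miR-304-5p they were 37.8 and 5013 CPM.

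With both arms counted, the pair looked different. Each mir-998 read was met by 20.2, 17.4 and 16.4 mir-11 reads in the intestine libraries, against 16.7 and 11.0 for the carcass, and carcass replicate 1 fell within the intestine range. The relative log2 change of the hairpin sums was -0.44 and was not called (edgeR usage test, adjusted p = 0.227; 2 of 5 introns called, 40%). Of the hairpin sums themselves, mir-11 (0.78) and mir-995 (1.07) were called higher and mir-285 (-5.30) lower, while mir-998 (0.34) was not called. Among all 139 hairpins tested, 33.8% were called higher and 51.1% lower, 84.9% together (edgeR quasi-likelihood test). Without carcass replicate 1 the relative change of the pair was -0.71 and was called (edgeR adjusted p = 0.0359), and without carcass replicate 2 it was -0.11. The unequal change of the E2f1 pair was thus measured for the 3p arms and not for the sum, which for mir-998 is mostly 5p reads.

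**Figure D3:**
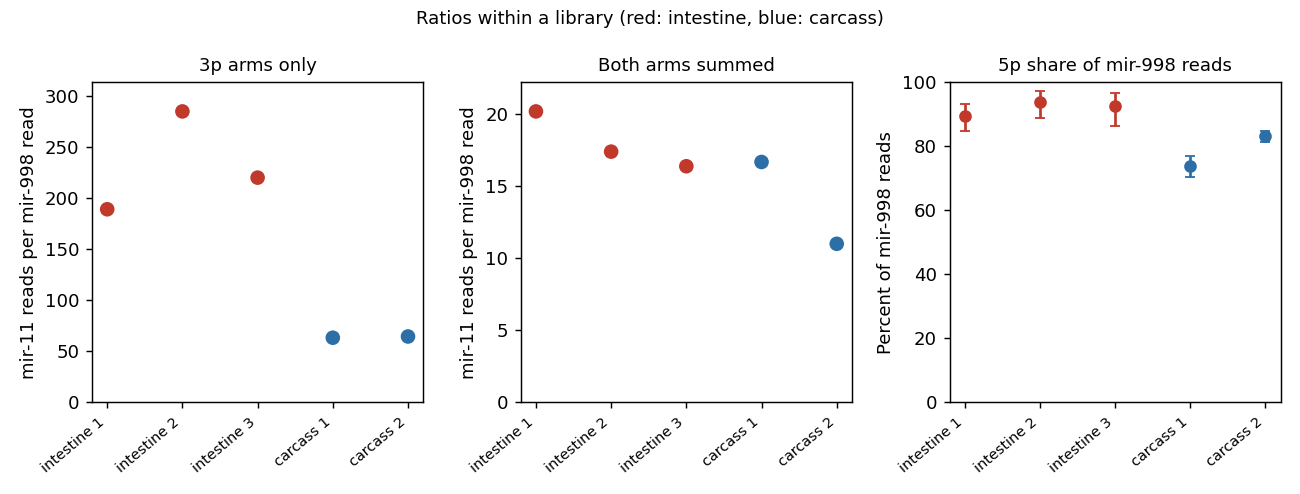
Ratios within each library, red for intestine and blue for carcass: mir-11 reads per mir-998 read for the 3p arms (left) and for both arms summed (middle), and the percent of mir-998 reads on the 5p arm with 95% exact binomial intervals (right). The 3p ratio separates the tissues, at 189 or more in the intestine and 64.5 or less in the carcass, whereas the summed ratio overlaps.

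Other hairpins that share an intron gave both kinds of result. There were 6 such introns with 15 hairpins, E2f1 included. Of the 23 tested arms of the others, 13 were called higher and 5 lower (edgeR quasi-likelihood test), where 34.7% and 48.2% of all tested arms were. Their median was 0.88 on the log2 scale against -0.50 for all tested arms. In the Gmap intron, miR-283-5p (log2 fold change 3.25) and miR-283-3p (2.47) were higher. miR-304-5p (-0.16) and miR-12-5p (0.31), from the same intron, did not pass. The spread of the hairpin sums was 3.44 on the log2 scale in Gmap, 1.46 in grp, 0.44 in E2f1, 0.17 in spi and 0.04 in Oda. The spi and Oda introns hold near-identical copies whose reads the counting could share, so their small spreads are uncertain. For the same reason their arms may not be independent entries in the count of called arms and the median. The lowest called arms were miR-999-3p in CASK (-1.62) and miR-281-1-5p in Oda (-1.30).

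Among the relatives of miR-998 by seed, miR-285-3p showed the larger difference by a wide margin. It had 5, 5 and 4 reads in the intestine libraries, against 1206 and 2102 in those of the carcass. This gave 10.5, 15.4 and 14.4 CPM against 571 CPM in each carcass library, so no library of one tissue came near the other. The fit gave a log2 fold change of -5.44 with an SE of 0.34 (edgeR adjusted p = 1.25e-16), with 41 of the 222 tested arms lower still. In every intestine library the arm was under the filter's minimum, a CPM equal to 10 reads at the median library size. It therefore entered the test through the carcass, where it is high, and a difference had to appear. The fold change lay between -5.28 and -5.96 in the 17 alternatives, the fit without a filter included. The log2 fold change lay 4.94 below the median of all arms with TMM.

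On library totals, miR-285-3p in the intestine was 1.64 ± 0.320% of its carcass level (SD, n = 3). The marker lists of neurons and eye, muscle (mir-133 only, without mir-1) and testis had 0.788, 1.04 and 1.29% by the same measure. The part of other tissues in the few intestine reads of miR-285 was not tested. The 5p arm, miR-285-5p, had 40 and 135 reads in the carcass (18.9 and 36.6 CPM) and none in the intestine. Its carcass mean was at least 3.17-fold above the intestine, a bound set by 3 reads in each intestine library. This arm, too, was kept by the filter through its carcass reads alone. It held 3.21 and 6.03% of the mir-285 reads in the carcass; with 4 or 5 hairpin reads in an intestine library, its share there could not be measured.

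miR-995-3p, from the Cdk2 intron, went the other way with TMM. Intestine libraries held 197, 160 and 170 CPM of it and carcass libraries 98.0 and 94.5, all intestine libraries being higher. With a log2 fold change of 0.88 and an SE of 0.25, the edgeR adjusted p was 0.00162. It was positive in every alternative and called with 3 of 6 scalings. With library totals it was 0.35 and not called (edgeR adjusted p = 0.209), and without intestine replicate 1 it was 0.44 and not called (edgeR adjusted p = 0.172). miR-995-5p was the arm that did not pass the filter, with 5, 4 and 4 intestine reads and 14 and 39 carcass reads. Its share of the mir-995 reads was 5.05 to 7.84% for the intestine and 6.33 and 10.1% for the carcass, ranges that overlap.

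**Figure D4:**
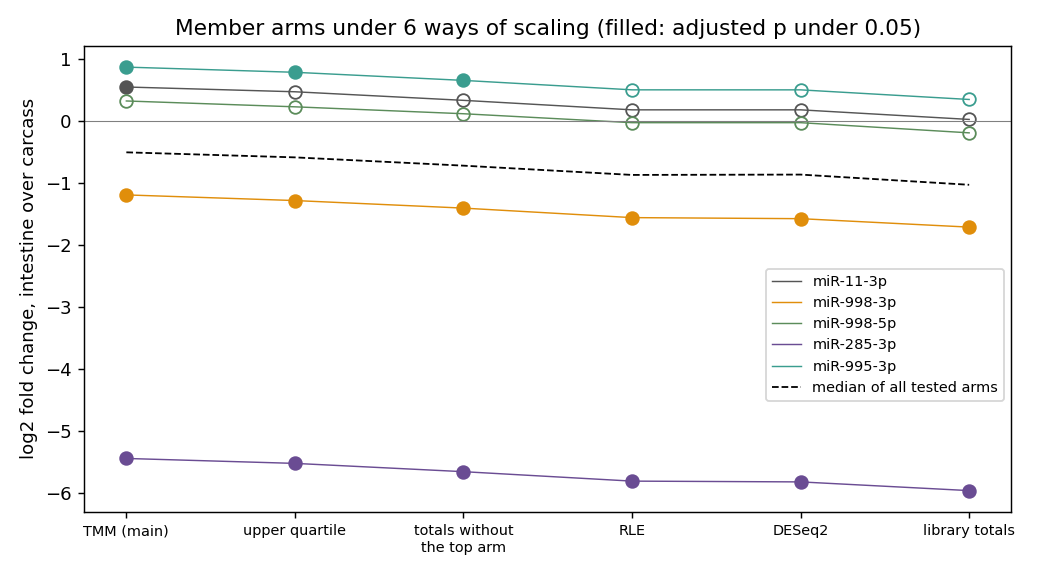
Log2 fold change of intestine over carcass (y axis) for 5 member arms under 6 ways of scaling (x axis), filled where the adjusted p was under 0.05, with the median of all tested arms as a dashed line. miR-285-3p and miR-998-3p stayed below 0 and called with each scaling, while miR-11-3p moved from 0.55 with TMM to 0.03 with library totals and miR-998-5p crossed 0.

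Summed, the 3 arms with the miR-998 seed came to 258, 203 and 217 CPM in the intestine libraries, against 759 and 750 CPM for the carcass. The pool was 3.34-fold larger in the carcass, without overlap (exact two-sided permutation p = 0.2, the smallest possible). miR-285-3p made up 4.07, 7.58 and 6.67% of the intestine pool, against 75.2 and 76.1% of the carcass pool. The 95% exact binomial intervals reached at most 16.8% in the intestine libraries and fell no lower than 73.0% in the carcass libraries.

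miR-995-3p took the leading place in the intestine, with 76.4, 78.8 and 78.3% of the pool, against 12.9 and 12.6% in the carcass. miR-998-3p itself was a minor part in both tissues, at 16.0 ± 3.08% (SD, n = 3) and 11.6 ± 0.394% (SD, n = 2). Its gap of 4.48 percentage points was 2.74 without intestine replicate 1. Each of the 3 shares gave an exact two-sided permutation p of 0.2, the smallest possible, and shares of one pool are not independent of each other.

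Without miR-285-3p the pools of the tissues lay close together, the carcass values in or just below the intestine range. miR-998-3p and miR-995-3p together amounted to 212 ± 31.3 CPM for the intestine (SD, n = 3) against 184 ± 6.27 CPM for the carcass (SD, n = 2), 1.16-fold with TMM and 0.804-fold with library totals, so the direction turned with the scaling. Between those arms the balance differed in these libraries, without overlap. There were 3.92, 5.78 and 5.22 miR-995-3p reads per miR-998-3p read in the intestine, against 1.09 and 1.12 in the carcass. The intestine ratios rest on 24, 9 and 9 miR-998-3p reads, and the difference was not tested.

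**Figure D5:**
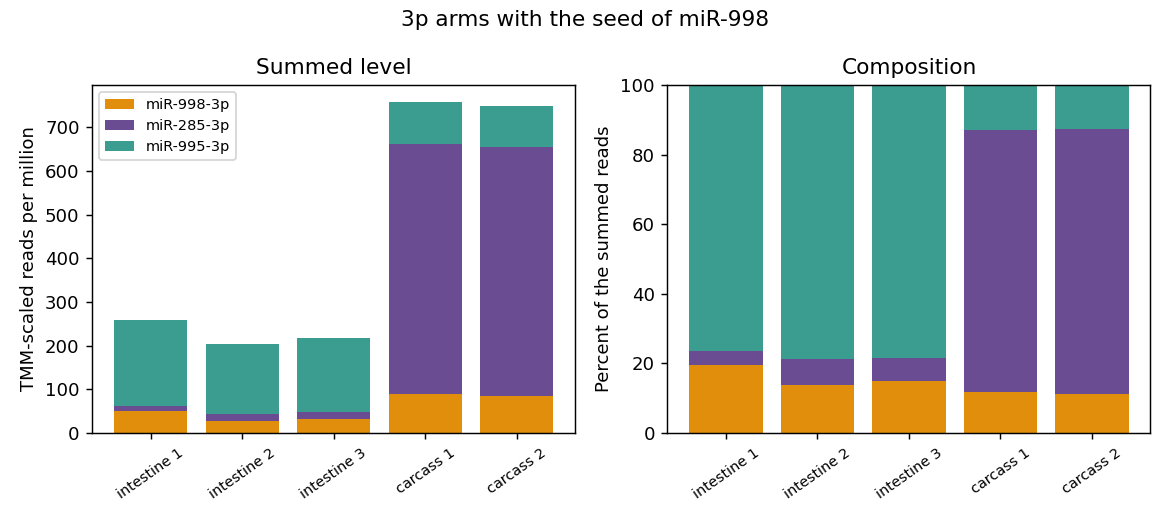
The 3p arms with the seed of miR-998 in each library, as stacked TMM-scaled CPM (left) and as percent of their sum (right). The carcass libraries hold 759 and 750 CPM, mostly miR-285-3p, and the intestine libraries between 203 and 258 CPM, mostly miR-995-3p.

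miR-11-3p belongs to another and far larger seed pool, that of the K-box microRNAs. The 13 arms of this list, copies of miR-2, miR-6 and miR-13 among them, summed to 36086 ± 3435 CPM for the intestine (SD, n = 3) against 20252 ± 1237 CPM for the carcass (SD, n = 2). This is 1.78-fold with TMM and 1.24-fold with library totals. miR-11-3p supplied 23.8, 23.6 and 20.5% of these reads in intestine libraries 1 to 3, against 29.4 and 25.8% for the carcass, with no overlap (exact two-sided permutation p = 0.2, the smallest possible). The gap of 4.97 percentage points was 3.21 without carcass replicate 1. Of the other 12 arms, 10 were tested; 8 were called higher and 1 lower (edgeR quasi-likelihood test), where 34.7% and 48.2% of all tested arms were. Their median log2 fold change was 0.96, against -0.50 for all tested arms.

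The K-box arms with the highest changes were miR-308-3p, from an intron of RpS23 (2.83), and miR-6-1-3p (2.68), which rested on few reads (means of 20.7 CPM for the intestine and 3.08 CPM for the carcass). miR-6-1-3p passed the filter through the intestine alone. miR-13a-3p was the lowest at -5.03, its hairpin having 9, 7 and 5 intestine reads, and passed the filter through the carcass alone. For both arms a difference had to appear. The next lowest called arm, miR-2b-2-3p, was higher at 0.88, and miR-2c-3p (-0.34) did not pass. Copies of miR-2, miR-6 and miR-13b can share reads, and how such reads were counted is not given. The K-box sum and the share of miR-11-3p in it are uncertain to that extent. Copies also entered the count of called arms and the median as separate arms, though they may not be independent of each other.

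Other microRNAs with known roles in cell death were also measured in both tissues. Of the 7 tested arms of bantam, mir-14, mir-263a and mir-263b, 6 were called higher in the intestine and 1 lower (edgeR quasi-likelihood test), where 82.9% of all tested arms were called, 34.7% higher and 48.2% lower. Their median log2 fold change was 1.19, against -0.50 for all tested arms. However, mir-263a and mir-263b are also in the marker lists above, for the intestine and for neurons and eye. Their directions were known in advance, so the count and the median are no independent result about cell death microRNAs. bantam-3p, which represses hid and promotes growth, had 0.67. miR-263a-5p (1.73) and miR-263a-3p (2.40) were higher, and their paralogue miR-263b-5p, also a repressor of hid, was lower at -6.55.

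Patterns over the 5 libraries were compared by the root mean square distance of log2 TMM-scaled CPM centred on each arm's mean, a description without a test in which the tissue difference counts most. Nearest to miR-11-3p among arms of other hairpins were miR-317-3p, miR-31a-5p and miR-965-3p, at distances of 0.09, 0.10 and 0.10. Nearest to miR-998-3p were miR-8-5p, miR-276a-3p and miR-8-3p, at 0.24, 0.25 and 0.28. Nearest to miR-995-3p were miR-14-3p, miR-965-3p and miR-305-5p, at 0.08, 0.08 and 0.10. miR-285-3p was nearest to miR-1015-3p (0.21), miR-960-3p (0.22) and miR-983-2-3p (0.23). Of these, miR-960-3p and miR-983-2-3p belong to testis clusters and had no intestine read. Their fitted log2 fold changes were -9.51 and -9.17, against -5.44 for miR-285-3p and -5.82 for miR-1015-3p. In the distance, the intestine values of arms without reads were set by the prior count of 2, so their small distances partly reflect this floor. Neither miR-11-3p nor miR-998-3p was among the 3 nearest of the other.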

How the data were processed

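The deposited values were whole-number read counts per annotated mature microRNA arm, 1 column per library and not normalised. Per the submitters' processing notes, the authors used Bowtie2 2.3.2, featureCounts, Subread 2.0.0 and cutadapt 1.9.1. The build, the annotation, the strand setting and the treatment of multiply matching reads were not given in the sources used here. Groups and replicate numbers come from sample titles. Rows were matched to BDGP6.54 by name (473) or synonym (6), and arms were taken from their position in the hairpin.

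These counts went into edgeR 4.0.16 under R 4.3.3, with filterByExpr (minimum count 10, total 15), TMM factors, quasi-likelihood test, Benjamini-Hochberg threshold 0.05, SE as absolute log2 fold change over the root of F. Ratios and shares within a library were tested by exact permutation (SciPy 1.17.1), with the two-sided p as 2 times the smaller one-sided p. Arm use was tested with edgeR's diffSpliceDGE, added after the counts were seen. Log2 CPM for distances used a prior count of 2. Alternatives were other scalings, filters and tools (DESeq2 1.42.0, limma 3.58.1 voom), a replicate block, hairpin sums and left-out libraries. The edgeR steps were also run on simulated data, whose outcome is not given here. The simulation took its means over both tissues, so it did not cover arms nearly absent from a tissue. Members and lists were chosen with earlier results of these data known. Named arms were the 8 members, the 3 nearest patterns of each 3p arm, and in each list the 2 highest and 2 lowest called arms; those not called in the Gmap intron and miR-2c-3p were named after their values were seen. Mature sequences were not analysed here, so seeds are given from general knowledge.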

Additional observations from a re-analysis of the deposited data

How the results depend on the processing

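Depth in the intestine limits miR-998-3p, miR-995-5p and both arms of miR-285, and small log2 fold changes depend on the scaling. Leaving out 1 carcass library takes the spread of the remaining one from the intestine. Both arms of miR-285 were lower in all alternatives that gave a value, but they were kept by the filter through the carcass alone, so this is no sign of stability. The usage results for miR-998-3p (against miR-998-5p and against miR-11-3p) were called, and that for mir-11 was not, with each library left out. miR-995-5p had no value in the main fit.

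Arms called higher numbered 77, against 50 with library totals, 41 in a test against a 2-fold change and 47 among hairpin sums; arms called lower numbered 107, against 71 among hairpin sums. For miR-11-3p, the log2 fold change (0.55) was not called with RLE factors (0.19), upper-quartile factors (0.48), library totals (0.030), totals without the most abundant arm (0.34), DESeq2 (0.19), no filter (0.15), a filter at a mean of 10 CPM (0.29) or against a 2-fold change (0.55). For miR-11-5p (0.83), the same settings other than upper-quartile factors gave 0.48, 0.32, 0.63, 0.48, 0.43, 0.58 and 0.83. miR-995-3p was not called with RLE factors (0.51), library totals (0.35), DESeq2 (0.51), no filter (0.47) or against a 2-fold change (0.88). miR-998-3p was not called against a 2-fold change (-1.19), and the hairpin sum of mir-998, mostly 5p reads, had 0.34. miR-998-5p turned to -0.022 with RLE factors, -0.19 with library totals, -0.022 with DESeq2 and -0.083 without a filter. The cause of these changes was not tested.

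With libraries left out in turn, log2 fold changes ran from 0.094 to 0.58 for miR-11-3p, 0.39 to 0.98 for miR-11-5p, 0.44 to 0.90 for miR-995-3p and 0.0074 to 0.73 for miR-998-5p. The relative change of the mir-998 and mir-11 hairpin sums ran from -0.71 to -0.11. The tissue gap in 5p share ran from 8.91 to 18.2 percentage points for mir-998, from -6.03 to -3.21 for mir-285 and from -3.40 to 0.34 for mir-995, where it turned without carcass replicate 2 (-1.53 with all libraries). With both arms of each hairpin counted, the log2 ratio of mir-998 to mir-11 differed by -0.40, and the gaps in the seed pool were 32.3 points for mir-998, -51.4 for mir-285 and 19.1 for mir-995. The log2 difference of the pool (-1.75) was -2.27 with library totals and -0.77 with both arms.

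Replicate numbers are shared by 2 pairs, whose deviations correlated at 0.03 and 0.02, so the numbers give no sign of pairing. With a replicate block, 73 arms were higher and 107 lower, miR-11-3p had 0.64, miR-998-3p -1.15, miR-285-3p -5.50 and miR-995-3p 0.89, and no member changed its call.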
